A study of Mus musculus with 9 samples.

Results

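Nuclear genes for subunits of respiratory chain complexes I to IV and of ATP synthase, called complex V, were examined in mouse colonic mucosa of 3 genotypes. Members were taken by gene symbol. These were Nduf followed by a, b, c, s or v and a number for complex I, Sdha to Sdhd for complex II, Uqcr for complex III, Cox4 to Cox8 for complex IV and Atp5 for complex V. The rule found 81 of the 18194 genes with a probe set of their own, and 75 of these were bright enough to test among 11274 genes. Complex I gave 33 tested of 35 members, complex II 4 of 4, complex III 8 of 8, complex IV 13 of 17 and complex V 17 of 17. A further 7 symbols, among them Ndufs6 and Ndufa11, had only probe sets shared with another gene and are described separately. The mucosa came from 3 samples each of mice transgenic for hGAS (hGAS), mice lacking gastrin (Gas-/-, here GasKO) and wild-type mice (WT). All mice were males of the C57BL/6 strain aged 6 weeks, and the labels name no treatment. The labels give neither the promoter and cell type that drive hGAS nor the deleted part of the gastrin gene. They do not say whether replicates were separate mice, so p-values measure only the spread between these samples.

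The respiratory chain passes electrons from NADH through complex I, or from succinate through complex II, to coenzyme Q, complex III, cytochrome c and complex IV, where oxygen is reduced to water. Complexes I, III and IV pump protons across the inner mitochondrial membrane, and ATP synthase uses their return to make ATP. Most subunits are encoded in the nucleus and meet a small set encoded in mitochondrial DNA, and colonocytes, which burn butyrate from bacterial fermentation, depend strongly on this oxidation. The series title concerns proliferation that depends on progastrin, the precursor encoded by the gastrin gene. The comparisons here ask how the subunit genes differ between mucosa with the human transgene, without gastrin and of wild type.

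Expression was measured on 9 Affymetrix arrays as log2 values that the authors made with GCRMA, with array medians between 4.13 and 4.16. A value under log2 4 is called low here, and a gene was tested where at least 3 arrays reached that level. Gast, the targeted gene, was low on every array, at 1.96, 1.95 and 1.95 in hGAS, 2.14, 2.11 and 1.99 in GasKO and 1.96, 1.97 and 1.93 in WT mucosa, so its probe set checks neither the knockout nor the transgene. Over all genes tested the GasKO arrays stood apart, at 25.8 to 30.1 on a first principal component with 53.9% of the variance, against -19.2 to -15.8 for hGAS and -13.0 to -8.38 for WT arrays. Array median deviations over all genes tested stayed between -0.011 and 0.0044 on the log2 scale. The subunit genes were among the steadier ones, with a median SD within genotypes of 0.050, against 0.105 for all genes tested. In bulk mucosa, fewer cells of a type and less RNA per cell cannot be told apart.

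Most subunit genes had slightly lower values in GasKO than in WT mucosa. With limma and Benjamini-Hochberg adjustment over all genes tested, 8 of the 75 fell at an adjusted p under 0.05 and 0 rose. These shares, 10.7% and 0%, compare with 5.48% lower and 6.63% higher among all genes tested (12.1% in either direction). The genes that fell were Ndufs5, Cox7a1, Atp5e, Atp5o, Cox7a2l, Ndufa3, Uqcr11 and Atp5g1, and their falls were small except for Ndufs5 at 1.79-fold and Cox7a1 at 1.36-fold. In all, 65 of the 75 log2 changes were negative, against 48.2% over all genes tested. The negative ones were 28 of 33 in complex I, 4 of 4 in complex II, 8 of 8 in complex III, 8 of 13 in complex IV and 17 of 17 in complex V, and no test was run per complex. Pairs of subunit genes had a median correlation of 0.43 over the 9 arrays, against 0.0040 for all genes tested. After group means were removed, that of the subunit genes was 0.19. Their signs are therefore not independent of one another. The 3 GasKO values lay below all 3 WT values in 34 genes (45.3%) and above them in 2, Cox6a1 and Cox6b2, while 15% of all genes tested lay below and 16.1% above. At an unadjusted p under 0.05, 20 were lower and 1 higher, against 11.7% and 14.2% of all genes tested. The median log2 change was -0.053, with quartiles of -0.11 and -0.018, against a median of 0.0067 over all genes tested. Regardless of sign, the median change was 0.064, against 0.109 over all genes tested. The median SE was 0.046, against 0.086, so a change of a given size was called more easily in subunit genes. Without WT replicate 1, WT replicate 2 or GasKO replicate 2, the count that fell was 5, and 1 gene, Cox6b2, rose without GasKO replicate 3.

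Against GasKO mucosa, hGAS mucosa held more mRNA of many subunit genes: 19 of 75 rose (25.3%) and 0 fell. Among all genes tested, 8.05% rose and 8.51% fell in this comparison (16.6% in either direction). The hGAS values lay above all GasKO values in 38 subunit genes (50.7%) and below them in 0, against 18.2% above and 18.4% below over all genes tested. At an unadjusted p under 0.05, 34 were higher and 0 lower, against 15.5% and 15.7% of all genes tested. Of the 75 log2 changes, 67 were positive, and the median was 0.10, against 0.0014 over all genes tested. Regardless of sign, the median change was 0.10, against 0.12 over all genes tested. This comparison uses the same GasKO arrays as GasKO vs WT, so the 2 comparisons are not independent and only their values are set side by side. The count that rose was 10, 11 and 9 without GasKO replicate 1, 2 and 3 in turn and 9 without hGAS replicate 1. The calls of Ndufs5, Cox7a1, Atp5e and Ndufa4 held without any 1 array, and 6 others, Uqcr11, Cox7a2l, Ndufa5, Ndufb10, Ndufc1 and Atp5md, were lost without 1 array each (GasKO replicate 3 for the first pair, hGAS replicate 1 for Ndufa5 and Atp5md and GasKO replicate 1 for Ndufb10 and Ndufc1). With the replicate number as a block, Ndufb2 and Ndufb3 were called as well.

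Between hGAS and WT mucosa, 0 subunit genes rose and 0 fell in the limma fit, where 1.16% of all genes tested were called (0.639% higher and 0.523% lower). At an unadjusted p under 0.05, 3 were higher and 1 lower, against 7.71% and 6.45% of all genes tested. Of the 75 log2 changes, 54 were positive, and the median was 0.033, against 0.0080 over all genes tested. The hGAS values lay above all WT values in 8 genes (10.7%) and below them in 1, Cox7a1, against 9.35% above and 8.36% below over all genes tested.

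**Figure D1:**
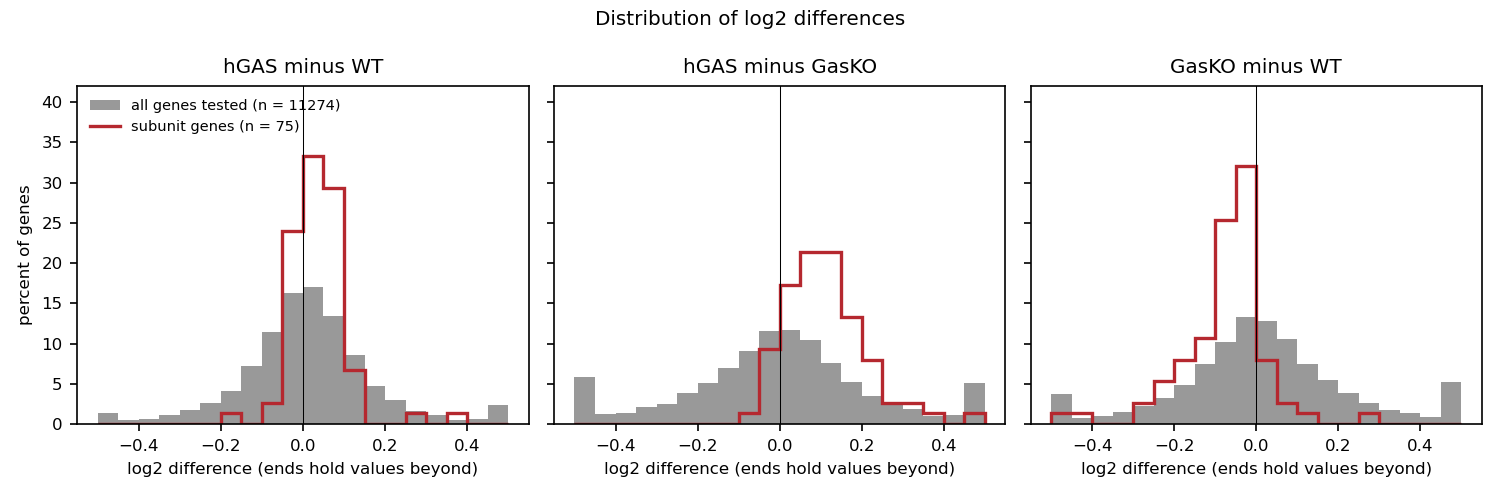
Percent of genes (vertical axis) by log2 difference (horizontal axis, in steps of 0.05, with values beyond 0.5 in the end bins) in each comparison, for the 75 subunit genes (red line) and all 11274 genes tested (grey bars). The red outline lies mostly left of 0 in GasKO minus WT (median -0.053), right of 0 in hGAS minus GasKO (median 0.10) and close to 0 in hGAS minus WT (median 0.033).

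The shift was seen on each GasKO array. For each array, every gene's deviation from its own mean over the 9 arrays was averaged over the 75 genes. This mean deviation was 0.066, 0.014 and 0.074 in the hGAS samples, -0.065, -0.068 and -0.063 in the GasKO samples and 0.041, 0.0053 and -0.0033 in the WT samples. All GasKO arrays were thus below the other 6, by a similar amount each, while the hGAS and WT ranges met between 0.014 and 0.041. Between 60 and 62 of the 75 genes were below their own mean on the GasKO arrays, against 11 to 33 on hGAS and 15 to 42 on WT arrays. By group means, 44 genes had the order GasKO, WT, hGAS from lowest to highest and 18 had the order GasKO, hGAS, WT, which are 58.7% and 24.0% of the 75, against 21.7% and 15.9% of all genes tested. A moderated F test over the 3 genotypes called 14 of the 75 (18.7%), against 15.8% of all genes tested. WT and hGAS were neighbours in these orders, and none of the 75 genes was called between them (adjusted p under 0.05, limma). With 3 samples per group, this does not show that they were equal.

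**Figure D2:**
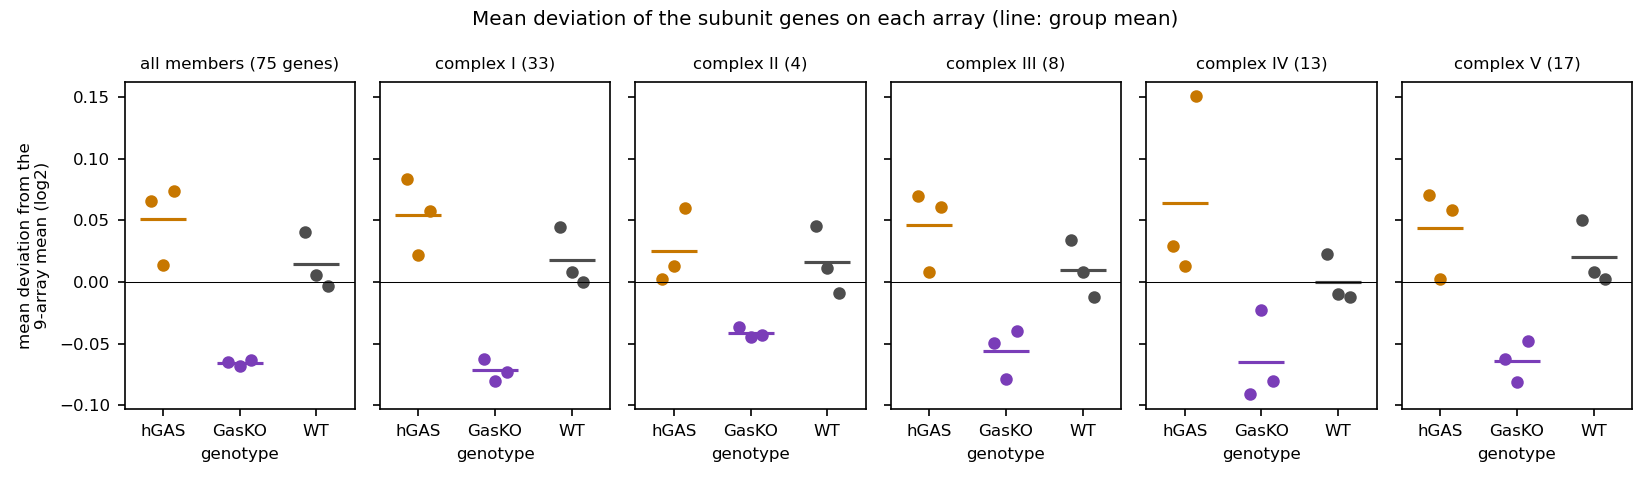
Mean log2 deviation of the subunit genes from their 9-array means (vertical axis) by genotype (horizontal axis), for all 75 genes and for each complex, with the number of genes in brackets; points are arrays and lines group means. In every panel the 3 GasKO arrays lie below 0, and hGAS replicate 3 stands highest in complex IV, at 0.151. That mean includes the dim gene Cox8b, which read 5.19 on this array, against 3.89 and 4.03 on the other hGAS arrays.

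Several other measures moved with the genotypes. Of 12 colonocyte markers, 3 fell and 1 rose in GasKO vs WT, with a summed level (log2 of the sum) of 16.42 to 16.52 in hGAS, 16.26 to 16.37 in GasKO and 16.32 to 16.44 in WT samples. Those that fell were Ceacam20, the carbonic anhydrase gene Car4 and Cyp2c55, and the uroguanylin gene Guca2b rose. In hGAS vs GasKO, 6 of the 12 rose and 1 fell. Myeloid markers summed to 11.73 to 12.11 in hGAS, 12.43 to 12.59 in GasKO and 12.04 to 12.09 in WT samples, and 4 of 8 rose in GasKO vs WT, while 5 of 8 fell in hGAS vs GasKO. Plasma cell markers were at 14.77 to 15.10, 15.20 to 15.33 and 14.15 to 14.72 in the hGAS, GasKO and WT samples in turn, with 4 of 6 higher and 1 lower in GasKO vs WT and 1 higher in hGAS vs GasKO. Sums over 6 B cell markers, with Pax5 low throughout, were 6.35 to 6.98 in hGAS, 8.73 to 9.48 in GasKO and 7.90 to 8.56 in WT samples. Of the 5 tested, 3 rose in GasKO vs WT, 5 fell in hGAS vs GasKO and 3 fell in hGAS vs WT. These immune markers were thus highest in GasKO samples, where the subunit genes were lowest. Epithelial markers, which the label of mucosa calls for, were high everywhere, at 16.38 to 16.43, 16.46 to 16.48 and 16.35 to 16.44 in the hGAS, GasKO and WT samples, and 2 of 10, Epcam and Krt18, rose in GasKO vs WT and 2 of 10 fell in hGAS vs GasKO. Goblet cell sums were 17.14 to 17.16 in hGAS, 17.22 to 17.25 in GasKO and 17.00 to 17.23 in WT samples, and those of stem and progenitor cells were 12.96 to 13.19, 13.05 to 13.17 and 13.13 to 13.24, with 4 of 10 lower in GasKO vs WT. In hGAS vs GasKO, 1 of 9 goblet cell markers rose and 3 fell, and 3 of 10 stem and progenitor markers rose and 1 fell. All T cell and erythrocyte markers measured were low on all 9 arrays. As a sign of RNA quality, the 3′ minus 5′ probe set difference of Gapdh was -0.154 to -0.0683 in hGAS, -0.117 to -0.0885 in GasKO and -0.176 to -0.138 in WT samples, and that of actin was 0.879 to 0.938, 0.872 to 0.938 and 0.763 to 0.888. The part of these measures in the subunit gene differences was not tested.

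Complex I, which oxidises NADH, has a catalytic core of subunits that bind NADH, flavin and iron-sulfur clusters, surrounded by accessory subunits needed for its assembly and stability. Of the 6 nuclear core subunit genes, Ndufs1, Ndufs3, Ndufs7, Ndufs8, Ndufv1 and Ndufv2, 0 fell in GasKO vs WT, although all 6 log2 changes were negative. Ndufs3, a core subunit of the quinone-reducing module, rose in hGAS vs GasKO (log2 0.31, SE 0.090, adjusted p = 0.043, limma). It is named after its values were seen, and its call was lost without any 1 of 7 arrays. In GasKO vs WT, Ndufs3 was called lower with the replicate number as a block and without GasKO replicate 1, but not in the fit reported. Of the 27 accessory subunit genes tested, 2 fell in GasKO vs WT, Ndufs5 and Ndufa3, and 7 rose in hGAS vs GasKO. All complex I counts here follow the gene symbol, so they include Ndufa4, which was later assigned to complex IV.

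Ndufs5, an accessory subunit at the intermembrane-space side of the membrane arm, showed the largest difference of the 75 genes in GasKO vs WT and in hGAS vs GasKO. Its values were 10.38, 10.39 and 10.39 in hGAS, 9.58, 9.61 and 9.53 in GasKO and 10.41, 10.46 and 10.38 in WT samples. The GasKO samples lay far below the other 6, which overlapped one another. The log2 change was -0.84 in GasKO vs WT (SE 0.043, adjusted p = 2.08e-06) and 0.81 in hGAS vs GasKO (SE 0.043, adjusted p = 2.41e-06) in the limma fit. A second probe set, annotated to Ndufs5 and to the pseudogene Ndufs5-ps, did not show this fall. It read 11.27, 11.23 and 11.26 in hGAS, 11.39, 11.15 and 11.39 in GasKO and 11.28, 11.18 and 11.16 in WT samples, and the groups overlapped. Its log2 change in GasKO vs WT was 0.11 (adjusted p = 0.357, limma), with the opposite sign, so the fall of Ndufs5 is that of 1 probe set. Signals from the gene and its near-identical copy cannot be told apart in the second probe set.

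Ndufa3, a small accessory subunit of the membrane arm, had values of 12.57, 12.61 and 12.61 in hGAS, 12.46, 12.42 and 12.47 in GasKO and 12.64, 12.57 and 12.59 in WT samples. Here too the GasKO samples lay below all others. The log2 change was -0.15 in GasKO vs WT (SE 0.037, adjusted p = 0.028) and 0.14 in hGAS vs GasKO (SE 0.037, adjusted p = 0.027), and a second bright probe set changed by -0.18 in GasKO vs WT (adjusted p = 0.016 in a limma fit of all probe sets). Leaving out WT replicate 1 or any 1 GasKO sample ended the first call, with an adjusted p up to 0.091, and leaving out any 1 GasKO sample or hGAS replicate 2 or 3 ended the second, with an adjusted p up to 0.084.

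Ndufa4, first described as a complex I subunit and later assigned to complex IV, stood at 10.82, 10.60 and 10.77 in hGAS, 10.38, 10.44 and 10.34 in GasKO and 10.61, 10.54 and 10.64 in WT samples. The hGAS samples were above the GasKO samples (log2 0.35, SE 0.062, adjusted p = 0.0047, limma), and this call held without any 1 array. Against WT, GasKO samples were also lower (log2 -0.21), but the adjusted p of 0.053 missed the threshold. The other complex I genes that rose in hGAS vs GasKO were Ndufa5 (log2 0.26, adjusted p = 0.014), an accessory subunit of the peripheral arm, Ndufb10 (0.22, adjusted p = 0.013) and Ndufc1 (0.18, adjusted p = 0.014), both of the membrane arm, and Ndufs4 (0.17, adjusted p = 0.044), whose loss in mice causes a Leigh-like encephalopathy. The groups did not overlap in any of these 4 genes. The call of Ndufs4 was kept only without WT replicate 3 or hGAS replicate 2, and lost without any 1 of the other 7 arrays. In GasKO vs WT, Ndufb10 changed by -0.16 (adjusted p = 0.065), Ndufc1 by -0.13 (0.058), Ndufa5 by -0.11 (0.251) and Ndufs4 by -0.035 (0.710).

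Ndufa12, an accessory subunit of the peripheral arm, showed no difference in its brightest probe set, at 12.14 ± 0.01 in hGAS, 12.14 ± 0.10 in GasKO and 12.14 ± 0.02 in WT samples (log2, SD, n = 3 each). Its other 3 probe sets disagreed, and the gene is named after this was seen. One averaged 12.31 in hGAS, 11.44 in GasKO and 12.33 in WT samples, a log2 change of -0.90 in GasKO vs WT (adjusted p = 2.66e-06, limma fit of all probe sets). The next averaged 11.54 in hGAS, 11.76 in GasKO and 11.51 in WT samples, a change of 0.24 (adjusted p = 0.0044). The dimmest averaged 5.78, 6.32 and 5.81 in the hGAS, GasKO and WT samples, a change of 0.51 (adjusted p = 0.018). For this gene the direction in GasKO therefore depends on the probe set, and no call is made. In Cox7a2 both probe sets had the same sign, at -0.24 in GasKO vs WT (adjusted p = 0.0039) in the second and -0.092 in the one used.

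The 7 symbols with shared probe sets do not count among the 81. The probe set of Ndufs6 and Ndufs6b averaged 11.71 in hGAS, 11.50 in GasKO and 11.62 in WT samples and rose in hGAS vs GasKO (log2 0.21, adjusted p = 0.014). The brighter of 2 probe sets shared by Ndufb4, Ndufb4b and Ndufb4c averaged 11.70, 11.54 and 11.64 in the hGAS, GasKO and WT samples and also rose in hGAS vs GasKO (log2 0.16, adjusted p = 0.042), whereas the probe set of Ndufb4 alone was low on all arrays. That of Ndufa11 and Ndufa11b differed by -0.032 in hGAS vs GasKO (adjusted p = 0.661).

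Complex II, succinate dehydrogenase, links the chain to the citric acid cycle, and none of its 4 genes was called in any comparison. Sdha, the flavoprotein, was at 11.27, 11.32 and 11.32 in hGAS, 11.32, 11.27 and 11.24 in GasKO and 11.30, 11.31 and 11.33 in WT samples, and the groups overlapped. Sdhb, the iron-sulfur subunit, was at 11.98, 11.89 and 12.04 in hGAS, 11.88, 11.90 and 11.86 in GasKO and 12.00, 11.97 and 11.91 in WT samples, so GasKO lay just below WT (log2 -0.080, adjusted p = 0.312). Sdhd, a membrane anchor, was higher in all hGAS than in all GasKO samples by a log2 difference of 0.12 (adjusted p = 0.136). The median log2 change of the 4 genes was -0.054 in GasKO vs WT and 0.061 in hGAS vs GasKO, and all 4 signs were negative in the one and positive in the other.

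In complex III, which passes electrons from coenzyme Q to cytochrome c, the Rieske and core protein genes had smaller log2 changes than most genes for small subunits. The Rieske protein gene Uqcrfs1 and the core protein genes Uqcrc1 and Uqcrc2 had log2 changes between -0.024 and -0.0012 in GasKO vs WT and between -0.0094 and 0.050 in hGAS vs GasKO, and none was called. Of the 5 small subunit genes, Uqcr11 fell in GasKO vs WT, and Uqcr11 and Uqcrq rose in hGAS vs GasKO. Whether the small subunit genes differ from the others was not tested. Uqcr11 was at 11.78, 11.71 and 11.83 in hGAS, 11.59, 11.58 and 11.56 in GasKO and 11.78, 11.78 and 11.69 in WT samples. All GasKO samples lay below all others, with log2 changes of -0.17 in GasKO vs WT (SE 0.044, adjusted p = 0.034) and 0.20 in hGAS vs GasKO (SE 0.044, adjusted p = 0.015) by limma. The fall against WT lost its call without WT replicate 1 or 2 or any 1 GasKO sample, with an adjusted p up to 0.118. Uqcrq was at 11.59, 11.49 and 11.57 in hGAS, 11.32, 11.30 and 11.35 in GasKO and 11.54, 11.39 and 11.36 in WT samples, so GasKO was lowest here too (log2 0.23 in hGAS vs GasKO, adjusted p = 0.020). That call was lost without any 1 GasKO sample or hGAS replicate 1 or 3, and the mean of all its probe sets gave a log2 change of 0.065 (adjusted p = 0.280). Uqcrh, the hinge protein that helps cytochrome c dock, changed by 0.14 in hGAS vs GasKO (adjusted p = 0.063).

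Complex IV, cytochrome c oxidase, holds subunits with broadly expressed and tissue-restricted isoforms. The 10 broadly expressed genes tested gave 1 fall in GasKO vs WT, Cox7a2l, and 3 rises in hGAS vs GasKO, Cox6c, Cox7a2 and Cox7a2l. Cox7a2l encodes SCAF1, a factor of supercomplexes of complexes III and IV. Its values were 11.17, 11.10 and 11.23 in hGAS, 10.96, 10.96 and 10.88 in GasKO and 11.10, 11.16 and 11.23 in WT samples. GasKO lay below both other groups, which overlapped, with log2 changes of -0.23 in GasKO vs WT (SE 0.051, adjusted p = 0.017) and 0.23 in hGAS vs GasKO (SE 0.051, adjusted p = 0.014). The first call was lost without WT replicate 2, WT replicate 3 or GasKO replicate 3 (adjusted p up to 0.075). The other Cox7a2l probe sets had the same signs but were not called in a limma fit of all probe sets. They changed by -0.14 and -0.082 in GasKO vs WT (adjusted p = 0.177 and 0.338). In hGAS vs GasKO they changed by 0.16 and 0.13 (adjusted p = 0.107 and 0.113). Cox6c and Cox7a2 rose in hGAS vs GasKO by 0.19 (adjusted p = 0.017) and 0.15 (adjusted p = 0.023). The call of Cox6c was lost without GasKO replicate 1 or 3 or hGAS replicate 1 and that of Cox7a2 without any 1 GasKO sample or hGAS replicate 1 or 3. Cox4i1, Cox5a, Cox5b, Cox6a1 and Cox6b1, which encode broadly expressed subunits or isoforms, had log2 changes between -0.017 and 0.051 in GasKO vs WT and between -0.042 and 0.052 in hGAS vs GasKO, and none was called. Cox8a, the broadly expressed isoform of its subunit, was below WT in all GasKO samples (log2 -0.19, adjusted p = 0.063).

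Of the isoforms known from other tissues, Cox7a1, the form of heart and skeletal muscle, had the largest log2 change in GasKO vs WT after Ndufs5. Its values were 9.99, 9.89 and 10.06 in hGAS, 9.71, 9.62 and 9.77 in GasKO and 10.16, 10.10 and 10.18 in WT samples. The 3 genotypes did not overlap, with GasKO lowest, hGAS between and WT highest. The log2 change was -0.44 in GasKO vs WT (SE 0.059, adjusted p = 0.0012) and 0.27 in hGAS vs GasKO (SE 0.059, adjusted p = 0.013), and the -0.17 of hGAS vs WT was not called (adjusted p = 0.233). Both calls held without any 1 array. Smooth muscle markers summed to 15.89 to 16.02 in hGAS, 15.81 to 16.00 in GasKO and 15.90 to 16.08 in WT samples, and 0 of 9 were called. Striated muscle markers summed to 9.07, 9.33 and 12.90 in hGAS, 9.34, 8.93 and 10.16 in GasKO and 9.23, 11.26 and 10.09 in WT samples, with 2 of 10, Myh2 and Myh4, low throughout, so hGAS replicate 3 stood apart. On that array Cox8b, the muscle isoform of its subunit in rodents, read 5.19, against 3.89 and 4.03 in the other hGAS samples, 3.89, 4.55 and 4.03 in GasKO and between 3.90 and 4.14 in WT samples. Adipocyte markers, of which Lep, Ucp1 and Cidea were low, summed to 9.92 to 10.74, 10.82 to 11.43 and 9.72 to 10.55 in the hGAS, GasKO and WT samples. The part of muscle or fat in these values was not tested.

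Cox6b2, the testis isoform of its subunit, ran the other way. It was at 7.06, 7.01 and 6.90 in hGAS, 7.01, 7.21 and 6.82 in GasKO and 6.67, 6.70 and 6.76 in WT samples. The WT samples were lowest, below both other groups, but neither the 0.30 of GasKO vs WT (adjusted p = 0.090) nor the 0.28 of hGAS vs WT (adjusted p = 0.247) was called. Without GasKO replicate 3 the first of these reached 0.40 with an adjusted p of 0.037. Cox4i2, Cox6a2, Cox7b2 and Cox8c, isoforms of lung, muscle and testis, were low on all 9 arrays, as was the complex I paralogue Ndufa4l2, and these genes were not tested.

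**Figure D3:**
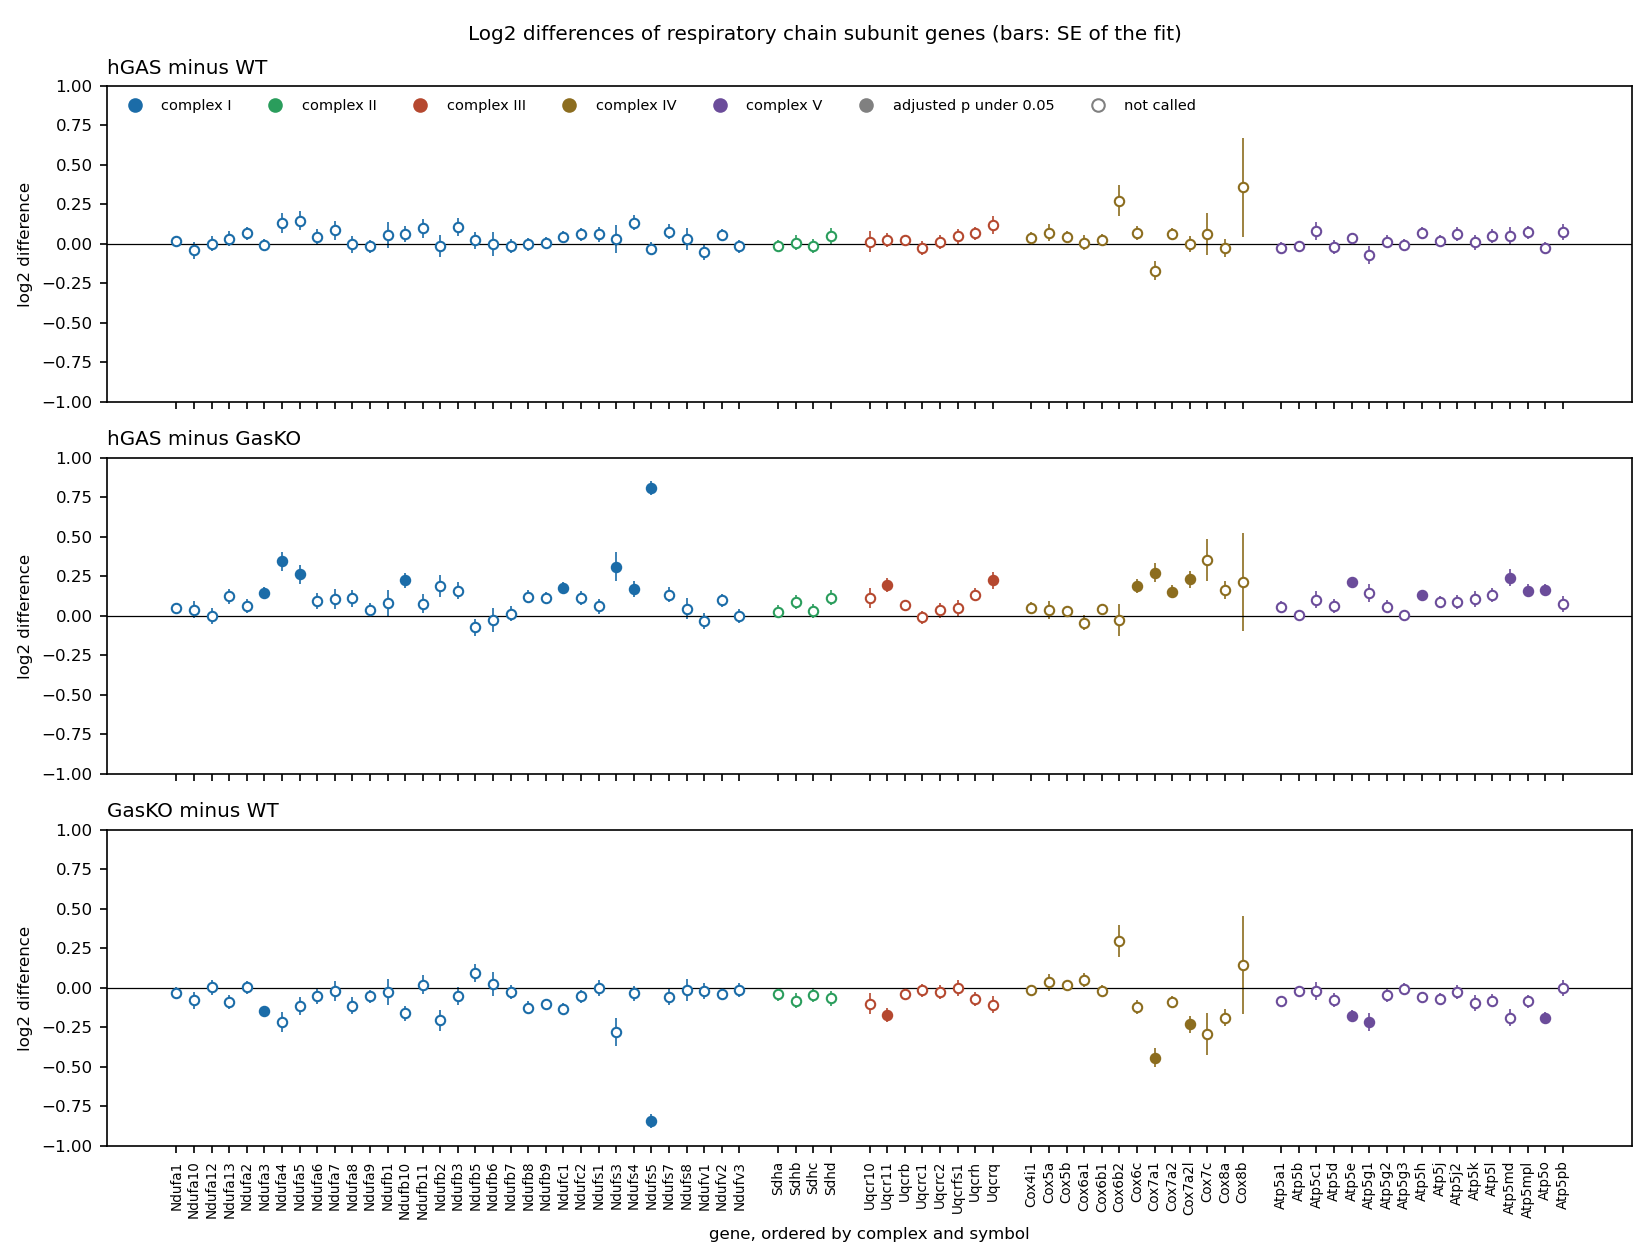
Log2 difference (vertical axis) of each of the 75 subunit genes (horizontal axis, by complex) in 3 comparisons; bars are the standard error of the limma fit, and filled points have an adjusted p under 0.05. The 19 filled points of hGAS minus GasKO all lie above 0, the 8 of GasKO minus WT all lie below 0, and hGAS minus WT has none.

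In complex V all 17 log2 changes were negative in GasKO vs WT and all 17 positive in hGAS vs GasKO, with 3 falls and 5 rises called. In the F1 head, which makes ATP, Atp5e encodes the epsilon subunit of the central stalk. Its values were 12.05, 12.00 and 12.04 in hGAS, 11.82, 11.79 and 11.84 in GasKO and 11.99, 12.00 and 11.99 in WT samples. Each group kept apart from the others, GasKO by the wider gap, with log2 changes of -0.18 in GasKO vs WT (SE 0.035, adjusted p = 0.0095) and 0.21 in hGAS vs GasKO (SE 0.035, adjusted p = 0.0028), both held without any 1 array. The alpha and beta subunit genes Atp5a1 and Atp5b, which form the catalytic ring, changed by -0.085 and -0.020 in GasKO vs WT and were not called. In the peripheral stalk, Atp5o, the subunit that confers oligomycin sensitivity, was at 12.19, 12.09 and 12.14 in hGAS, 11.98, 11.96 and 12.00 in GasKO and 12.19, 12.16 and 12.16 in WT samples. GasKO was again below both other groups (log2 -0.19 against WT, SE 0.038, adjusted p = 0.012), and hGAS exceeded it by 0.16 (adjusted p = 0.018), a call lost without GasKO replicate 1 or 2 or hGAS replicate 1. A second Atp5o probe set had the same signs but was not called in a limma fit of all probe sets. It changed by -0.15 in GasKO vs WT (adjusted p = 0.313) and by 0.14 in hGAS vs GasKO (adjusted p = 0.318). Atp5h, another stalk subunit, rose in hGAS vs GasKO by 0.13 (adjusted p = 0.036), which was lost without any 1 GasKO sample or hGAS replicate 1 or 3 (adjusted p up to 0.114 over the alternatives).

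Atp5g1, Atp5g2 and Atp5g3 encode the same mature c subunit of the proton-driven ring with different import sequences. Atp5g1 was at 11.53, 11.42 and 11.56 in hGAS, 11.31, 11.33 and 11.44 in GasKO and 11.63, 11.60 and 11.49 in WT samples. The GasKO samples lay below WT (log2 -0.21, SE 0.057, adjusted p = 0.040) but overlapped hGAS, and the call was lost without any 1 of 5 arrays (WT replicates 1 and 2, GasKO replicates 1 and 2 and hGAS replicate 1), with an adjusted p up to 0.144. Atp5g2 and Atp5g3 changed by -0.045 and -0.0069 in GasKO vs WT (adjusted p = 0.556 and 0.935), and a difference between the 3 copies was not tested. Atp5g1 lies on chromosome 11, as does Gast. Of the 4 subunit genes tested on that chromosome, the other 3, Uqcr10, Uqcrq and Atp5h, had log2 changes of -0.099, -0.11 and -0.059 in GasKO vs WT, none called. Their distances to Gast are not given here, and the part of this location was not tested. Among the small membrane subunits, Atp5md, which encodes the dimer-associated protein DAPIT, rose in hGAS vs GasKO (log2 0.24, adjusted p = 0.015), as did the proteolipid gene Atp5mpl (0.16, adjusted p = 0.029), the second of which lost its call without GasKO replicate 2 or 3 or hGAS replicate 1 or 3. In GasKO vs WT they changed by -0.19 (adjusted p = 0.052) and -0.084 (0.237).

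**Figure D4:**
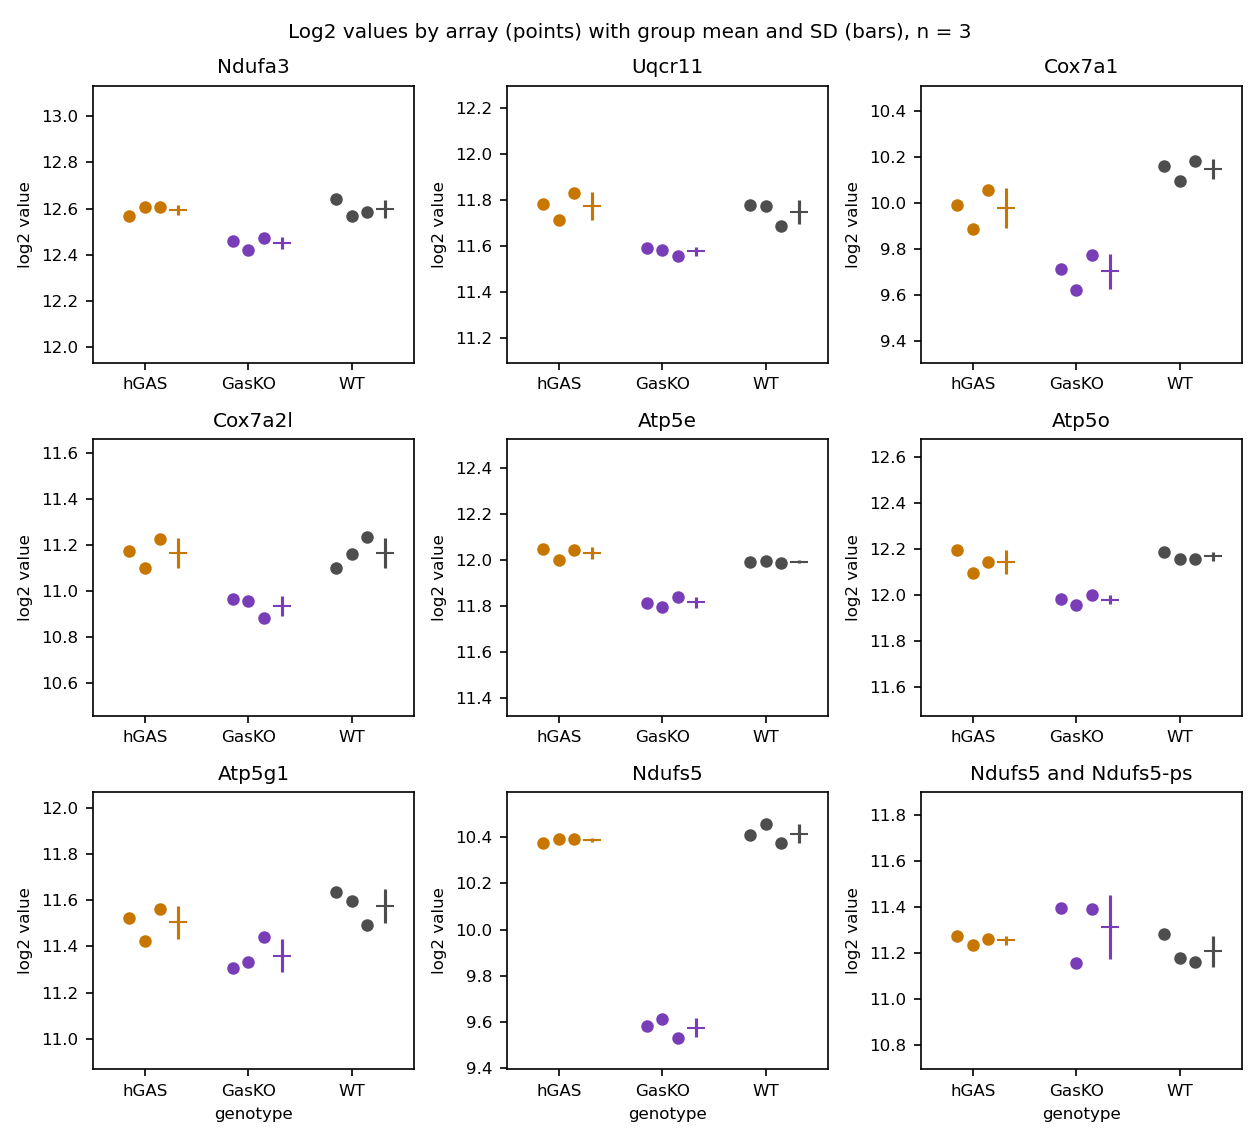
Log2 value on each array (points) with the group mean and SD (bars, n = 3) by genotype, for the 8 genes that fell in GasKO vs WT and for the second probe set of Ndufs5, shared with Ndufs5-ps; vertical axes do not start at 0 and have the same span in each panel. GasKO samples lie below both other groups in 7 of the 8 genes, overlap hGAS in Atp5g1, and overlap both groups in the second Ndufs5 probe set.

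Nuclear genes of the chain are known targets of NRF1, of ETS factors such as GABPA, of YY1 and of estrogen-related receptors (ERR), so the letters of their motifs were looked for in RefSeq promoter windows of build GRCm38.p6, from 250 bases before to 50 after the gene start. Windows were found for 66 of the 81 genes, 71 in all. GCATGCG (NRF1) stood in 14.1% of them and in 3.58% of all 32851 windows, CCGGAAG (ETS) in 23.9% and 8.86%, AAGATGG (YY1) in 14.1% and 6.34%, and AAGGTCA (ERR) in 11.3% and 4.72%, counting windows with the letters on either strand. At least 1 of the motifs stood in 47.9% of the subunit gene windows and in 21.4% of all windows. The latter were not restricted to genes tested on the arrays, and windows of tested genes alone were not compared. Among the 8 genes that fell in GasKO, Uqcr11, Atp5e, Ndufa3 and Ndufs5 held 1 or more, and Cox7a1, Cox7a2l, Atp5o and Atp5g1 held none of these letters. The 4 with a motif are shown 5′ to 3′ in the direction of transcription with the motif in capitals, as a description of the windows and not of bound sites. Uqcr11 (chr10:80406772-80407071, minus strand) holds the ETS letters and the NRF1 letters, which are read on both strands in 1 overlapping run.
Uqcr11: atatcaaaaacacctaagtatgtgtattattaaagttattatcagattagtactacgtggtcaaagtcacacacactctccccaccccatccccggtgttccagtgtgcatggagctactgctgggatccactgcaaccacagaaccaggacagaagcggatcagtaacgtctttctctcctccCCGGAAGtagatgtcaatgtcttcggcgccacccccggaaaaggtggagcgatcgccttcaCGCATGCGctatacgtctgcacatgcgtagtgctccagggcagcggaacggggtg
Atp5e (chr2:174464052-174464351, minus strand) holds the ETS letters as their reverse complement CTTCCGG and, past the start, the ERR letters as TGACCTT.
Atp5e: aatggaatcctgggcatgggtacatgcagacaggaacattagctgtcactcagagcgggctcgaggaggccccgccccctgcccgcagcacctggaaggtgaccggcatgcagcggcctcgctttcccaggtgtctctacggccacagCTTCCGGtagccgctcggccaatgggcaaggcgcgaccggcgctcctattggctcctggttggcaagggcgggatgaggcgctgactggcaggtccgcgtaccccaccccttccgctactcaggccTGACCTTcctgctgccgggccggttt
Ndufa3 (chr7:3617123-3617422, plus strand) holds the YY1 letters just past the gene start.
Ndufa3: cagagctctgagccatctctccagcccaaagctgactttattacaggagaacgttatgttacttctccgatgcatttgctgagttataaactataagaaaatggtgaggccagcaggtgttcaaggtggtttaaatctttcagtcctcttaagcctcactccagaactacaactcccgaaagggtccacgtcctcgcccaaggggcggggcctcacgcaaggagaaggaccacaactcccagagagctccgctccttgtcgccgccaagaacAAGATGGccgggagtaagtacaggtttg
Ndufs5 (chr4:123718137-123718436, minus strand) holds the ERR letters as TGACCTT far upstream in the window.
Ndufs5: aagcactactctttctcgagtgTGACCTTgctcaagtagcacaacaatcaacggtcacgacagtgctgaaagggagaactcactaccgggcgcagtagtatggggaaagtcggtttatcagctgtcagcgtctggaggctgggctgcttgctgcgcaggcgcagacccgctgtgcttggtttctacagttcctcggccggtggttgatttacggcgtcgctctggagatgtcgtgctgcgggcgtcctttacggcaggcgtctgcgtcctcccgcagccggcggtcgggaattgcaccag

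Regulators of genes for mitochondrial proteins were then compared, from a list of 15 genes. In GasKO vs WT 2 fell (13.3%, against 5.48% of all genes), Pprc1, a coactivator of the PGC-1 family (log2 -0.65, adjusted p = 0.0015), and Gabpb2, a partner of GABPA (-0.24, adjusted p = 0.025), and 0 rose. In hGAS vs GasKO 4 rose (26.7%, against 8.05% of all genes): Pprc1 (0.61), Ppara (1.09), the nuclear receptor of fatty acid oxidation, Gabpb2 (0.30) and Tfam (0.25), which packs and transcribes mitochondrial DNA, with adjusted p between 0.0018 and 0.014. Nrf1, Gabpa, Yy1 and the ERR gene Esrra, also on the list, were not called in any comparison. The median log2 change of the list was -0.058 in GasKO vs WT, with 10 of 15 changes negative. In hGAS vs GasKO it was 0.051, with 10 of 15 positive. Sums over the list overlapped, at 12.89 to 12.99 in hGAS, 12.84 to 12.91 in GasKO and 12.89 to 12.99 in WT samples.

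Other mitochondrial lists were set beside the shares of all genes tested, 5.48% lower and 6.63% higher in GasKO vs WT. In hGAS vs GasKO these shares were 8.51% lower and 8.05% higher. The median log2 change in GasKO vs WT was negative in each list below with genes tested, as in the subunit genes (-0.053). Of 76 mitochondrial ribosomal protein genes, 4 fell, Mrpl55, Mrpl3, Mrps18b and Mrpl9 (log2 -0.50 to -0.34), and Mrps9 rose (0.34). That is 6.58% called in either direction, against 12.1% of all genes tested. The median was -0.074, with 53 of 76 changes negative. In hGAS vs GasKO 10 (13.2%) rose and 0 fell, with a median of 0.10. Of 46 assembly factor genes, 4 fell and 1 rose in GasKO vs WT (10.9% in either direction), with a median of -0.096 and 31 of 46 changes negative. In hGAS vs GasKO 8 rose and 1 fell, with a median of 0.11. The only factor called higher in GasKO vs WT was Cox18, a complex IV insertase, at a log2 change of 1.06 in GasKO vs WT (adjusted p = 5.24e-05) and -1.17 in hGAS vs GasKO (adjusted p = 2.41e-05), while Cox20, Acad9 and Uqcc1, which assist complexes IV, I and III, fell by 0.30, 0.43 and 0.34 in GasKO vs WT. Of 21 import genes tested, Timm10, Timm13 and Timm9, small chaperones of the intermembrane space, fell by 0.29, 0.17 and 0.43 in GasKO vs WT (14.3%). The median there was -0.078, with 19 of 21 changes negative. In hGAS vs GasKO 4 rose, with a median of 0.11. In the citric acid cycle and pyruvate dehydrogenase list of 17 genes, Idh3a alone was called in GasKO vs WT (5.88%), with a fall of 0.21. The median of this list was -0.077, with 14 of 17 changes negative. Pdhx and Idh3b rose by 0.43 and 0.14 in hGAS vs GasKO, where the median was 0.066. Among 20 subunits and carriers whose symbols the rule does not reach, 0 were called in GasKO vs WT. The median was -0.022, with 13 of 20 changes negative. Cycs, cytochrome c, and Atpif1, the ATP synthase inhibitor, rose in hGAS vs GasKO by 0.35 (adjusted p = 0.030) and 0.19 (adjusted p = 0.027, limma). The median was 0.094 in that comparison. In hGAS vs WT none of these lists had a call. The 13 subunits encoded in mitochondrial DNA were not analysed here, as no probe set was matched to them.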

How the data were processed

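RNA of colonic mucosa was measured on 9 one-colour Affymetrix mouse arrays, 3 per genotype, grouped by the sample titles. The authors deposited log2 values that they had made with GCRMA, per the submitters' processing notes, which state no version. The scanner files were not used here. GCRMA corrects background from probe sequence and normalises by quantiles, so a change shared by most genes would be removed. The build used upstream is not given in the sources used here. Depth does not apply to arrays, and 3 arrays per group limit the precision.

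Gene symbols came from the platform annotation, in which 34958 of 45101 probe sets name 1 gene, 932 several and 9160 none, with 64 controls; 34754 of the first were matched by Entrez number to the RefSeq table. For each gene the probe set brightest on average over 9 arrays was used, and the gene was tested where at least 3 arrays reached log2 4. A limma 3.58.1 model (lmFit, eBayes with trend, R 4.3.3, data.table version 1.17.8) with genotype as its term was fitted to all 9 arrays, with 6 residual and 3.47 prior degrees of freedom, and was tested on simulated data. Tests were 2-sided, with Benjamini-Hochberg adjustment over 11274 genes and calls at an adjusted p under 0.05. A moderated F test asked for any difference among genotypes. Probe sets other than the one used were fitted in a separate limma run.

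The text names called genes (at most 15 per comparison by p), the 2 smallest p per complex and comparison, isoform sets, genes left out as low and, per further list, at most 4 called genes by p. The members, lists and rules were chosen with earlier results of these data known. Of the same-numbered samples, the correlations of deviations from group means were 0.15, -0.0056 and 0.15 for GasKO with WT, 0.25, 0.084 and 0.20 for hGAS with WT, and 0.12, 0.20 and 0.27 for hGAS with GasKO. Only the last all exceeded 0.1. Samples of different genotypes with different numbers gave correlations between -0.29 and 0.11. The labels do not say what a number marks, and the fit reported has no term for it. Alternatives covered the filter, scaling, probe set, eBayes settings, array weights, 6-array fits, a replicate block and leaving out each array. Python 3.11.15 with matplotlib 3.10.9 drew the figures.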

Additional observations from a re-analysis of the deposited data

How the results depend on the processing

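In GasKO vs WT, 13 subunit genes fell after median centring and 5 with no mean-variance trend, against 8 in the fit reported, and 1 rose, Ndufa12, when only probe sets meant for 1 transcript were used. The median log2 change was -0.069 after quantile normalisation again, -0.074 after median centring and -0.068 with those single-transcript probe sets. In hGAS vs GasKO, 11 rose with no mean-variance trend, against 19, and 1 fell, Ndufa12, with single-transcript probe sets. Leaving out each array in turn gave 5 to 10 falls and 0 to 1 rises in GasKO vs WT, with medians from -0.062 to -0.038, and 9 to 22 rises in hGAS vs GasKO, with medians from 0.077 to 0.13. Ndufs5, Cox7a1, Atp5e and Atp5o were called in GasKO vs WT in all 9 of these fits, and Ndufs5, Cox7a1, Atp5e and Ndufa4 in hGAS vs GasKO. With the probe set shared with Ndufs5-ps, an alternative chosen after seeing the data, Ndufs5 changed by 0.11 in GasKO vs WT and -0.059 in hGAS vs GasKO, the opposite signs. With the replicate number as a block, 9 genes fell in GasKO vs WT and 21 rose in hGAS vs GasKO; in GasKO vs WT the calls of Atp5g1 and Uqcr11 were lost under it (adjusted p = 0.054 and 0.051) and Atp5md (0.022), Ndufb2 and Ndufs3 gained one, and in hGAS vs GasKO Ndufb2 and Ndufb3 did. With the mean of all probe sets, Atp5g1, Atp5o, Cox7a2l and Ndufa3 lost their calls in GasKO vs WT (adjusted p = 0.268, 0.085, 0.086 and 0.082). Of 75 subunit genes, 60 to 69 were lower in GasKO than in WT and 65 to 70 higher in hGAS than in GasKO under the alternatives that test 75. With no filter these were 69 and 72 of 81, with the stricter filter 64 and 65 of 73, and with single-transcript probe sets 52 and 53 of 57. The causes of these differences were not tested. In hGAS vs WT, 0 subunit genes were called under every alternative run.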
